A study of Mus musculus with 282 samples.

Results

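The genes described here are 31 mouse genes of the type I interferon response, taken by name from a list and found as rows of both deposited count tables. All 31 were present among the 48440 gene rows of each table, with Ensembl identifiers that were matched to symbols in the GENCODE annotation of GRCm38. They were compared between cells from naive and from inflamed prostates within each of 2 batches, with attention to how many cells carried the reads of each gene. Type I interferons bind the receptor formed by Ifnar1 and Ifnar2, whose kinases phosphorylate Stat2. Stat2 and Irf9 are parts of the complex ISGF3, which binds interferon-stimulated response elements in promoters and turns on antiviral genes. In epithelia the response is known as an early defence against viral nucleic acid, and some of its genes also respond to interferon gamma.

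The study profiled 282 single cells of male POET3 mice, each sorted from prostate as a basal prostate stem cell. POET3 is a transgenic strain with ovalbumin expressed in the prostate and serves as a prostatitis model. The groups were naive cells and inflamed cells in each of batches 2 and 3, all from this strain, and the labels give neither the age of the mice nor how inflammation was brought about. Before sorting, cells were stained with a viability dye and for CD49f, Sca-1, CD31 and CD45 (the gates are not stated in the sources used here), and they were captured on a Fluidigm C1 instrument, which makes 1 library per cell, so no cell barcodes are shared. After cells with few genes or counts were left out, 53 and 59 naive cells and 80 and 76 inflamed cells of batches 2 and 3 remained.

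Each GEO sample is 1 cell and no animal is named, so counts were summed over the cells of each condition and batch. These 4 sums, of 52061533 and 50105953 counts for naive cells and 79225330 and 78459122 for inflamed cells, were the units tested. The p-values measure only how the difference between conditions spread over the 2 batches, which may be technical. Levels are given as CPM, with totals scaled by edgeR's TMM. In a sum, fewer cells with a transcript and less of it per cell cannot be told apart, so the share of cells with a read is given beside each level. The chemistry adds no molecular identifiers, and intervals and floors cover counting error only.

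The labelled cell type was checked against its markers. Of 10 basal epithelial markers, such as Krt5, Krt14 and Trp63, all 10 were read in 50% or more of the cells in each group. Of 12 leukocyte markers, 10 had 0 counts in every kept cell, among them Ptprc, which encodes CD45, and the summed level of the 12 was 0 to 0.684 CPM per sum. Of 6 markers of plasmacytoid and myeloid cells, which are known sources of type I interferon, Siglech, Csf1r and Adgre1 were at 0 in every sum, and the summed level was 12.5 to 37.3 CPM, Bst2 included. Of 6 stromal markers, only Dcn was read in at least 50% of cells, and it was read in 100% of the cells of every group. The summed level of the 6 was 3377 to 4399 CPM, nearly all of it Dcn (3377 to 4397 CPM), and its source was not tested. The basal markers summed to 8277 and 10111 CPM (naive) against 13899 and 13938 CPM (inflamed), and their part in the results was not tested. The summed level of 10 luminal markers was 1445 to 2265 CPM and that of 5 endothelial markers 0 to 2.22 CPM. Of the 10 luminal markers, 6 and 5 were read in at least 50% of naive cells of batches 2 and 3, and 4 and 4 in at least 50% of inflamed cells. Of the 48440 gene rows, 25458 were 0 in every deposited cell, so a gene at 0 throughout is only listed at 0.

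Promoter sequences were available in the RefSeq table (build GRCm38.p6) for 23 of the 31 genes. Oas2, Mx1, Mx2, Usp18, Rtp4, Dhx58, Zbp1 and Parp14 have no entry there. The core of the interferon-stimulated response element (GAAA, any 2 bases, GAAA) was searched on both strands in windows from 250 bases before to 50 bases after each annotated start. It occurred in 3.44% of 32851 windows and in at least 1 window of 3.99% of 27025 genes. Of the 23 genes, 13 (56.5%) held it. The stretches below run from 200 bases before to 20 bases after the start, 5′ to 3′ on the strand of the gene, with every match on either strand in capitals. They were chosen to show 3 genes whose reads sat in few cells (Isg15, Ifit3, Rsad2) beside 2 read in many (Ddx58, Oasl2).
Isg15, chr4:156200799-156201018, minus strand: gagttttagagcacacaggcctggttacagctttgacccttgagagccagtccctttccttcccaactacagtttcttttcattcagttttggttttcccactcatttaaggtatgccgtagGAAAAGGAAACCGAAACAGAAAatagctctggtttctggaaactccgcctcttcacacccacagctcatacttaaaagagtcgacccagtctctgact
Ifit3, chr19:34583329-34583548, plus strand: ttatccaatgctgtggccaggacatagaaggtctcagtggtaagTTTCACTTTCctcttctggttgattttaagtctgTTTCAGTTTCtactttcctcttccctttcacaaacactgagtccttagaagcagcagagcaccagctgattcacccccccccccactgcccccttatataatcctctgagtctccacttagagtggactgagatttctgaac
Rsad2, chr12:26456433-26456652, minus strand: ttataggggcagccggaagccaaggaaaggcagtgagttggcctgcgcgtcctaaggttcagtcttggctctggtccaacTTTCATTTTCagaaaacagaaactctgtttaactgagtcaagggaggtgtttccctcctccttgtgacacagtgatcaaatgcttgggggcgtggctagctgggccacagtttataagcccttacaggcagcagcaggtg
Ddx58, chr4:40239806-40240025, minus strand: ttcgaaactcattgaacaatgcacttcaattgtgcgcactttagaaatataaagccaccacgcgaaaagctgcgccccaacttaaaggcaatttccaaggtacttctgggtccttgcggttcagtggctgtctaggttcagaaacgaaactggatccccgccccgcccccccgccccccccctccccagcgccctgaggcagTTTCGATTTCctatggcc
Oasl2, chr5:114896734-114896953, plus strand: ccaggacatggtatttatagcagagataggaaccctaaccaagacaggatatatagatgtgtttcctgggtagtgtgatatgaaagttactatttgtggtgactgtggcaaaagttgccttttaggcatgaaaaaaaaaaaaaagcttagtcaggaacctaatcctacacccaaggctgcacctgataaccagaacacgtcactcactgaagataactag
Isg15 carried 3 overlapping matches, which began 78, 72 and 66 bases before the start. Ifit3 carried 2 separate matches, both on the opposite strand and farther from the start. Rsad2 carried 1 match 120 bases before its start, and that of Ddx58 lay just behind the start. The Oasl2 window held none, which says only that these letters are not in it.

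In the sums, many of the 31 genes were higher in inflamed than in naive cells, but no gene passed the test after adjustment. Of the 31, 24 had enough counts to be tested. Isg15, Ifit3b, Oas2, Oas3, Mx1, Mx2 and Cmpk2 were not, and Oas2 had no read in any cell. Of the 24, 16 were higher in inflamed cells in both batches, against 30.9% of the 14713 genes tested, 3 were lower in both (all genes, 28.3%) and 5 went opposite ways. One of the 3, Ifit3, had 2 and 0 counts in the batch 2 sums, which are too few to give a direction. With edgeR's quasi-likelihood test, 7 were higher at an unadjusted p under 0.05 (all genes, 5.04%) and 0 lower (all genes, 3.23%), and 0 of 14713 genes had an adjusted p under 0.05 (0%), the lowest being 0.568. DESeq2 gave 9 of the 24 an adjusted p under 0.05, all higher in inflamed cells, as it did for 7.13% of 13001 genes.

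These counts do not stand for the whole list, because several genes were tested only through their reads in inflamed cells. Of the 24 tested, 6 had at most 3 counts in each naive sum, and of all 31, 8 had 0 counts in both naive sums. Leaving out Ifit3, 11 of the other 23 tested genes had at most 3 counts in at least 1 naive sum. Among the 7 genes higher at an unadjusted p under 0.05 in edgeR, only Oasl2 and Ddx58 had more than 3 counts in each naive sum. Of the 9 that DESeq2 called, all but Oasl2 had at most 12 counts in each naive sum. The median log2 fold change of the 24 was 2.38, beside 0.10 for all genes tested. The 8 genes read in at least 20% of the kept cells had a median of 1.23, beside 0.01 for all 6981 such genes. Of these 8, 3 were higher at an unadjusted p under 0.05 in edgeR (all such genes, 7.28%). This filter pools naive and inflamed cells, so a gene can pass it through inflamed cells. Oasl2, among the 3, was read in 11.3% and 11.9% of naive but 35% and 53.9% of inflamed cells. The filter therefore does not remove the dependence on reads in inflamed cells. Within batch 2 alone the median log2 fold change of the 24 was 1.60, and within batch 3 alone it was 2.91.

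**Figure D1:**
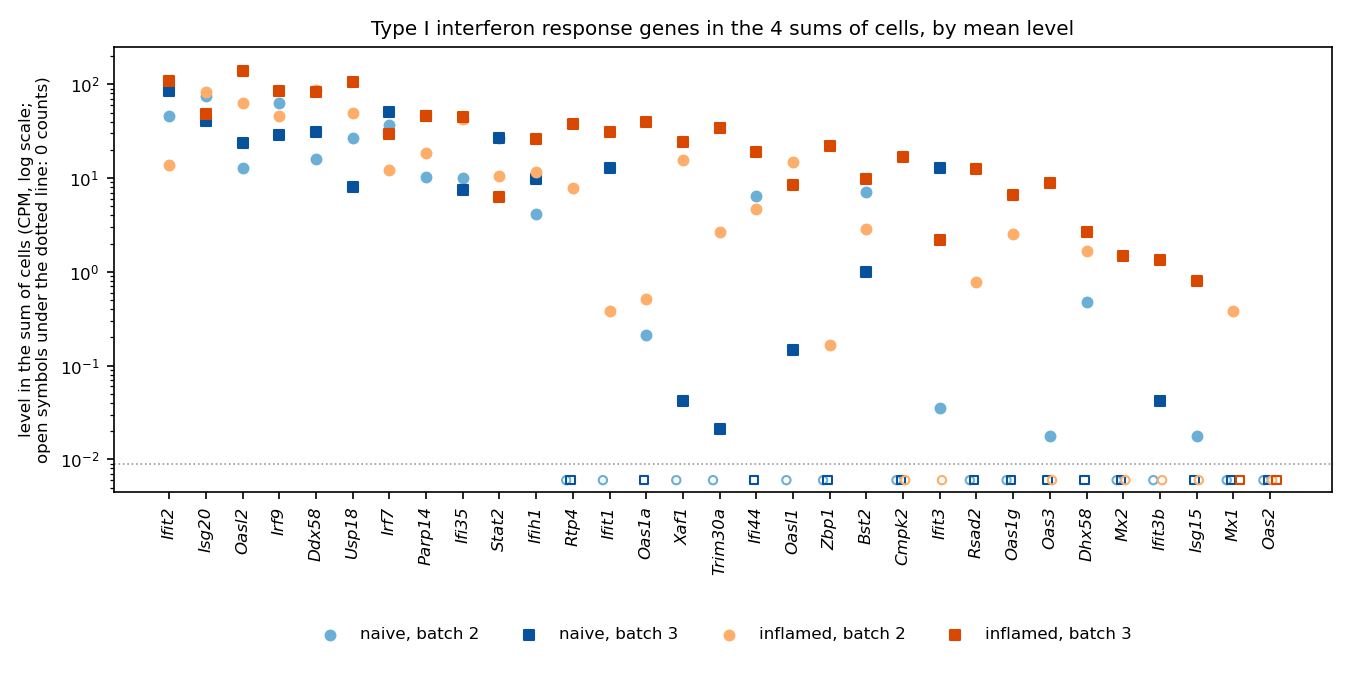
Level of each of the 31 genes in the 4 sums of cells, in CPM on a log scale, ordered by mean level, with open symbols under the dotted line for sums with 0 counts. The genes on the left were read in all 4 sums, while 8 of the 31 had 0 counts in both naive sums.

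The list holds 4 cytosolic sensors of nucleic acid or their regulators, and Ddx58, which encodes the RNA sensor RIG-I, was read in more cells than the other three. Ddx58 (ENSMUSG00000040296, chr4:40203773-40239828, minus strand) stood at 16.04 and 31.2 CPM in naive cells of batches 2 and 3, against 87.6 and 83.1 CPM in inflamed cells. Both inflamed values lay above both naive ones, 5.46-fold and 2.66-fold higher within the batches (fitted log2 fold change 1.93, SE 0.66, edgeR unadjusted p = 0.0474, adjusted p = 0.568). Reads were found in 16.98% and 23.7% of cells (naive) against 48.8% and 39.5% (inflamed), and in cells thinned to 500000 counts in 17.4%, 20.0%, 45.7% and 38.9%. Level and share of cells were thus both higher in inflamed cells of each batch.

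Ifih1 (ENSMUSG00000026896, chr2:62595798-62646255, minus strand), which encodes the RNA sensor MDA5, stood at 4.15 and 9.84 CPM (naive) against 11.5 and 26.4 CPM (inflamed). Its log2 fold change was 1.45 (SE 1.21, edgeR adjusted p = 0.829), 2.78-fold and 2.68-fold higher within the batches. It was read in 9.43% and 5.08% of cells (naive) against 31.2% and 17.1% (inflamed). Zbp1 (ENSMUSG00000027514, chr2:173206612-173218923, minus strand), a sensor of Z-form nucleic acid that can trigger cell death, had 0 counts in both naive sums and 13 and 1687 in the inflamed sums. Its level was at least 3.10-fold and at least 351-fold higher with 3 counts taken as the floor of each naive sum (edgeR unadjusted p = 0.0483, adjusted p = 0.568). It was read in 6 of 80 inflamed cells of batch 2, none with 5 reads or more, and in 14 of 76 of batch 3, 11 of them with 5 or more. Dhx58, a regulator of the RNA sensors, was read in at most 5.66% of the cells of any group.

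The factors that relay the signal showed no common direction in their summed levels, which rested in part on single cells. Stat2 (ENSMUSG00000040033, chr10:128270559-128292849, plus strand), a part of ISGF3, stood at 27.02 and 27.07 CPM (naive) against 10.5 and 6.22 CPM (inflamed), so both inflamed sums were lower (log2 fold change -1.74, SE 1.08, edgeR adjusted p = 0.736). Its share of cells went the other way, from 5.66% and 6.78% of naive to 12.5% and 11.8% of inflamed cells. A single naive cell of batch 2 held 99.9% of that sum's Stat2 reads, and without the cell with most Stat2 reads in each sum the log2 fold change was 3.26 (SE 4.03). The lower level of Stat2 therefore rested on single cells.

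Irf9 (ENSMUSG00000002325, chr14:55603571-55610030, plus strand), which gives ISGF3 its DNA contact, stood at 63.4 and 28.6 CPM (naive) against 45.96 and 85.6 CPM (inflamed). The groups overlapped, and Irf9 was 1.38-fold lower in inflamed cells of batch 2 and 2.99-fold higher in batch 3 (log2 fold change 0.56, SE 0.82, edgeR adjusted p = 0.938). A single naive cell of batch 2 held 76.9% of that sum's Irf9 reads. Without the cell with most Irf9 reads in each sum, the log2 fold change was 1.66 (SE 0.83, edgeR adjusted p = 0.667). Reads were found in 28.3% and 18.6% of cells (naive) against 35% and 32.9% (inflamed). Irf7 (ENSMUSG00000025498, chr7:141262706-141266481, minus strand), the factor that amplifies interferon production, stood at 37.1 and 50.6 CPM (naive) against 12.3 and 29.9 CPM (inflamed). Both naive values were above both inflamed ones, with 3.02-fold and 1.70-fold lower levels within the batches (log2 fold change -1.18, SE 0.79, edgeR adjusted p = 0.770). Its share of cells overlapped, at 37.7% and 23.7% of cells (naive) against 28.8% and 30.3% (inflamed). With 5 reads or more it was 13.2% and 8.47% (naive) against 12.5% and 19.7% (inflamed). In the naive sums 5 cells held 98.1% and 99.5% of the Irf7 reads, against 81.8% and 79.5% in the inflamed sums. Without the cell with most Irf7 reads in each sum, the log2 fold change was -1.12 (SE 1.00, edgeR adjusted p = 0.848).

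The 4 Ifit genes, which bind viral RNA and hinder its translation, did not share a direction either. Ifit2 (ENSMUSG00000045932, chr19:34550694-34576419, plus strand) stood at 45.6 and 85.1 CPM (naive) against 13.9 and 109.5 CPM (inflamed). Its groups overlapped (log2 fold change -0.68, SE 0.80, edgeR adjusted p = 0.911), and its shares of cells lay close together, at 20.8% and 23.7% of cells (naive) against 20% and 25% (inflamed). In all 4 sums a few cells held most Ifit2 reads, with 69.1%, 45.7%, 53.5% and 75.2% in the 1 cell that had most.

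Ifit1 (ENSMUSG00000034459, chr19:34640871-34650009, plus strand) stood at 0 and 12.95 CPM (naive) against 0.381 and 31.02 CPM (inflamed), and 99.7% of the naive reads of batch 3 came from 1 cell (log2 fold change 3.23, SE 2.32, edgeR adjusted p = 0.785). It was at least 7.16-fold higher in inflamed cells of batch 2 and 2.39-fold higher in batch 3. The batch 2 value rested on 30 reads in 1 of 80 inflamed cells, against 0 of 53 naive cells. Ifit1 was read in 3 of 59 naive and 8 of 76 inflamed cells of batch 3. Ifit3 (ENSMUSG00000074896, chr19:34583531-34588731, plus strand) stood at 0.0354 and 12.7 CPM (naive) against 0 and 2.20 CPM (inflamed), the batch 2 values being 2 counts and 0. It was 5.76-fold lower in batch 3, and the counts of batch 2 were too few to give a direction (log2 fold change -3.02, SE 2.02, edgeR adjusted p = 0.768). Of the naive reads of batch 3, 99.5% lay in 1 cell, as did 95.8% of the inflamed ones. Ifit3 shared 51.2% of its 50-base windows with Ifit3b, so reads of these near copies could be split between them and both are uncertain. Ifit3b itself had 0 and 2 counts in naive sums, and 0 counts and 1.33 CPM in inflamed sums, the latter all from 1 cell. Of the 31 genes, 23 shared under 5% of their windows with other genes, and outside the Ifit3 and Oas1 pairs Rtp4 shared most, at 11.6%.

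Among the Oas genes, which make the signal that activates the RNA-cutting enzyme RNase L or are related to those that do, Oasl2 was higher in inflamed cells of both batches. Oasl2 (ENSMUSG00000029561, chr5:114896936-114912234, plus strand), an OAS-like protein, stood at 12.7 and 23.5 CPM (naive) against 63.3 and 137.4 CPM (inflamed). Both inflamed values lay above both naive ones, with a log2 fold change of 2.43 (SE 0.57, edgeR unadjusted p = 0.0157, adjusted p = 0.568). Oasl2 was read in 11.3% and 11.9% of naive cells but in 35% and 53.9% of inflamed cells, and with 5 reads or more in 5.66%, 3.39%, 13.8% and 31.6%. In inflamed cells the 1 cell with most Oasl2 reads held 24.8% and 17.4% of them, and in naive cells 86.2% and 98.2%. Leaving out that cell in each sum thus took away most of the naive reads. The log2 fold change was then 6.39 (SE 1.41, edgeR unadjusted p = 0.0131, adjusted p = 0.568). In cells thinned to equal counts it was 1.58 (SE 0.60, edgeR unadjusted p = 0.0543, adjusted p = 0.563).

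Oas1a (ENSMUSG00000052776, chr5:120896256-120907521, minus strand) and Oas1g (ENSMUSG00000066861, chr5:120876142-120887613, minus strand), which encode synthetases, were read mostly in inflamed cells of batch 3. Oas1a stood at 0.213 and 0 CPM (naive) against 0.507 and 39.5 CPM (inflamed), with reads in 1 of 53, 0 of 59, 4 of 80 and 12 of 76 cells (log2 fold change 6.26, SE 5.54, edgeR adjusted p = 0.846). It was 2.39-fold higher in batch 2 and at least 624-fold higher in batch 3. Oas1g had 0 counts in both naive sums and stood at 2.51 and 6.62 CPM in inflamed cells, at least 47.2-fold and at least 104.7-fold higher (edgeR unadjusted p = 0.0493, adjusted p = 0.568). It was read in 4 of 80 and 6 of 76 inflamed cells, and 1 cell held 66.2% and 87.5% of its reads. The pair shared 57.6% of the 50-base windows of Oas1a, so their split is uncertain. Oasl1, a repressor of Irf7 translation, had 0 and 7 counts in naive and 1178 and 635 in inflamed sums, and Oas3 had 678 reads in 1 inflamed cell of batch 3 against 1 read in all other cells.

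The antiviral effectors ranged from wide to very narrow. Isg20 (ENSMUSG00000039236, chr7:78913424-78920396, plus strand), an exonuclease of viral RNA, had the highest level per length, 33.1 CPM per kilobase of exon on average, and its level differed little. It stood at 75.1 and 40.2 CPM (naive) against 82.4 and 48.4 CPM (inflamed), 1.10-fold and 1.20-fold higher within the batches (log2 fold change 0.20, SE 0.53, edgeR adjusted p = 0.988). It was read in 45.3% and 35.6% of cells (naive) against 57.5% and 30.3% (inflamed), so the groups overlapped in level and in cells with a read. With 5 reads or more they did not, at 20.8% and 8.47% (naive) against 36.2% and 23.7% (inflamed). Without the cell with most Isg20 reads in each sum, the log2 fold change was 0.82 (SE 0.66, edgeR adjusted p = 0.820). Usp18 (ENSMUSG00000030107, chr6:121245906-121270917, plus strand), which removes the modifier Isg15 and dampens the receptor, came next per length with 16.9 CPM per kilobase. It stood at 26.4 and 8.07 CPM (naive) against 49.2 and 105.3 CPM (inflamed), 1.86-fold and 13.1-fold higher (log2 fold change 2.30, SE 1.08, edgeR adjusted p = 0.642). Its naive shares differed between batches, with reads in 26 of 53 cells of batch 2, of which 8 had 5 or more, and in 1 of 59 cells of batch 3. In inflamed cells the shares were 28.8% and 34.2%, so Usp18 was higher in level but not in its share of cells in batch 2.

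Ifi35 (ENSMUSG00000010358, chr11:101448407-101458698, plus strand), an interferon-induced adaptor protein, stood at 10.0 and 7.46 CPM (naive) against 42.3 and 44.5 CPM (inflamed). Both inflamed values were higher, 4.21-fold and 5.96-fold within the batches (log2 fold change 2.32, SE 0.89, edgeR unadjusted p = 0.065, adjusted p = 0.581). Its share of cells with a read was 39.6% and 11.9% in naive and 33.8% and 30.3% in inflamed cells, while with 5 reads or more it was 13.2% and 1.69% against 21.2% and 25%. Parp14 (ENSMUSG00000034422, chr16:35832874-35871544, minus strand), an ADP-ribosyltransferase, stood at 10.3 and 46.2 CPM (naive) against 18.4 and 46.004 CPM (inflamed) (log2 fold change 0.42, SE 0.81, edgeR adjusted p = 0.968). Its groups overlapped, and 1 cell held 98.8% and 99.7% of the naive and 72.8% and 83.6% of the inflamed reads.

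Rtp4, Xaf1 and Trim30a were at or near 0 in naive cells. Rtp4 (ENSMUSG00000033355, chr16:23520291-23614222, plus strand), a chaperone of receptors that also blocks flaviviruses, had 0 counts in both naive sums but stood at 7.90 and 37.3 CPM in inflamed cells. That was at least 148.7-fold and at least 590-fold higher (edgeR unadjusted p = 0.0197, adjusted p = 0.568), with 87.2% and 40.3% of the inflamed reads in 1 cell of each batch. It was read in 5 of 80 and 17 of 76 inflamed cells, and in 0 of 53 and 0 of 59 naive cells, which allows shares of up to 5.66% and 5.08% if 3 cells are taken as the limit for a count of 0. Xaf1 (ENSMUSG00000040483, chr11:72301629-72313733, plus strand), which promotes cell death by binding the inhibitor XIAP, had 0 and 2 counts in naive cells, against 15.4 and 24.2 CPM in inflamed cells. It was at least 290-fold higher in batch 2 and 574-fold higher in batch 3, with a counting interval from 158.6 to 4742 (edgeR unadjusted p = 0.016, adjusted p = 0.568). It was read in 7 of 80 and 13 of 76 inflamed cells.

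Trim30a (ENSMUSG00000030921, chr7:104409025-104465193, minus strand), a feedback regulator of innate signalling, had 0 and 1 count in naive sums and 212 and 2573 counts in inflamed sums. It was at least 50.6-fold higher in batch 2 and 1606-fold higher in batch 3, with a counting interval from 288 to 63477 (edgeR unadjusted p = 0.011, adjusted p = 0.568, the lowest unadjusted p of the list). That value came from few cells: 99.5% and 99.8% of the inflamed reads were in 1 cell of each batch. Without the 1 cell of batch 3, Trim30a had too few counts to be tested. The remaining genes were low or narrow. Isg15, the ubiquitin-like modifier, had 1 and 0 counts in naive and 0 and 61 in inflamed sums. Rsad2, which makes an antiviral nucleotide, had 0 counts in both naive and 62 and 959 in the inflamed sums. Its neighbour Cmpk2 had 1281 counts in inflamed cells of batch 3, 93.4% of them in 1 cell, and 0 elsewhere. Ifi44 was read in 2.50% to 7.55% of the cells of 3 groups and in 0 of 59 naive cells of batch 3. Mx1 (0.381 CPM in batch 2) and Mx2 (1.46 CPM in batch 3) were each read in 1 inflamed sum. Bst2, which tethers budding virus, was read in 3.77% and 5.08% of cells (naive) against 7.50% and 15.8% (inflamed).

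**Figure D2:**
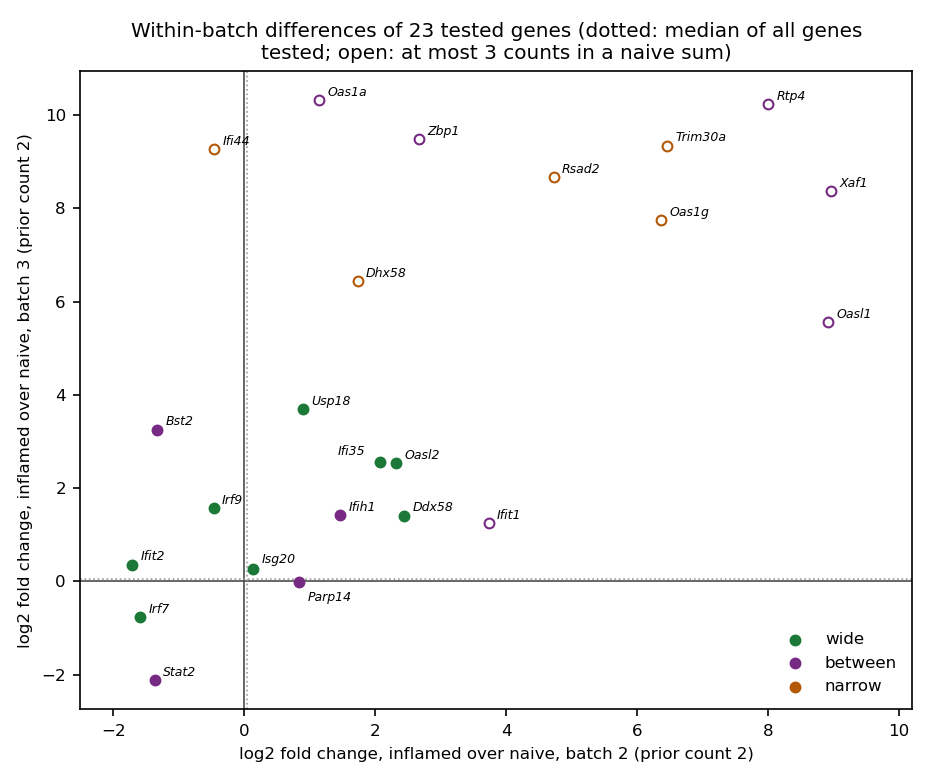
Log2 fold change of inflamed over naive cells in batch 2 (x axis) against batch 3 (y axis) for 23 of the 24 tested genes, with a prior count of 2 and with open symbols for the 11 that had at most 3 counts in a naive sum, where the value depends on the prior count. Ddx58, Ifi35, Oasl2, Usp18 and Ifih1 are filled and higher in both batches, while Irf7 and Stat2 are lower in both, and Ifit3 is left out because both batch 2 sums had at most 3 counts.

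How many cells carried each gene separated the list into 3 classes. A gene was called wide where at least 20% of inflamed cells had a read in both batches, narrow where under 10% did in both, and between otherwise. The 8 wide genes were Ifit2, Oasl2, Irf7, Usp18, Ddx58, Irf9, Isg20 and Ifi35, 10 genes were between and 13 were narrow. Just inside the wide class lay Ifit2, with 20% and 25%, and just outside it Ifih1, with 31.2% and 17.1%, and Rtp4, with 6.25% and 22.4%. When 5 reads were asked for, 3 genes were wide (Isg20, Ddx58 and Ifi35), 11 between and 17 narrow, so the class rests in part on cells with 1 to 4 reads. In thinned cells 7 were wide.

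**Figure D3:**
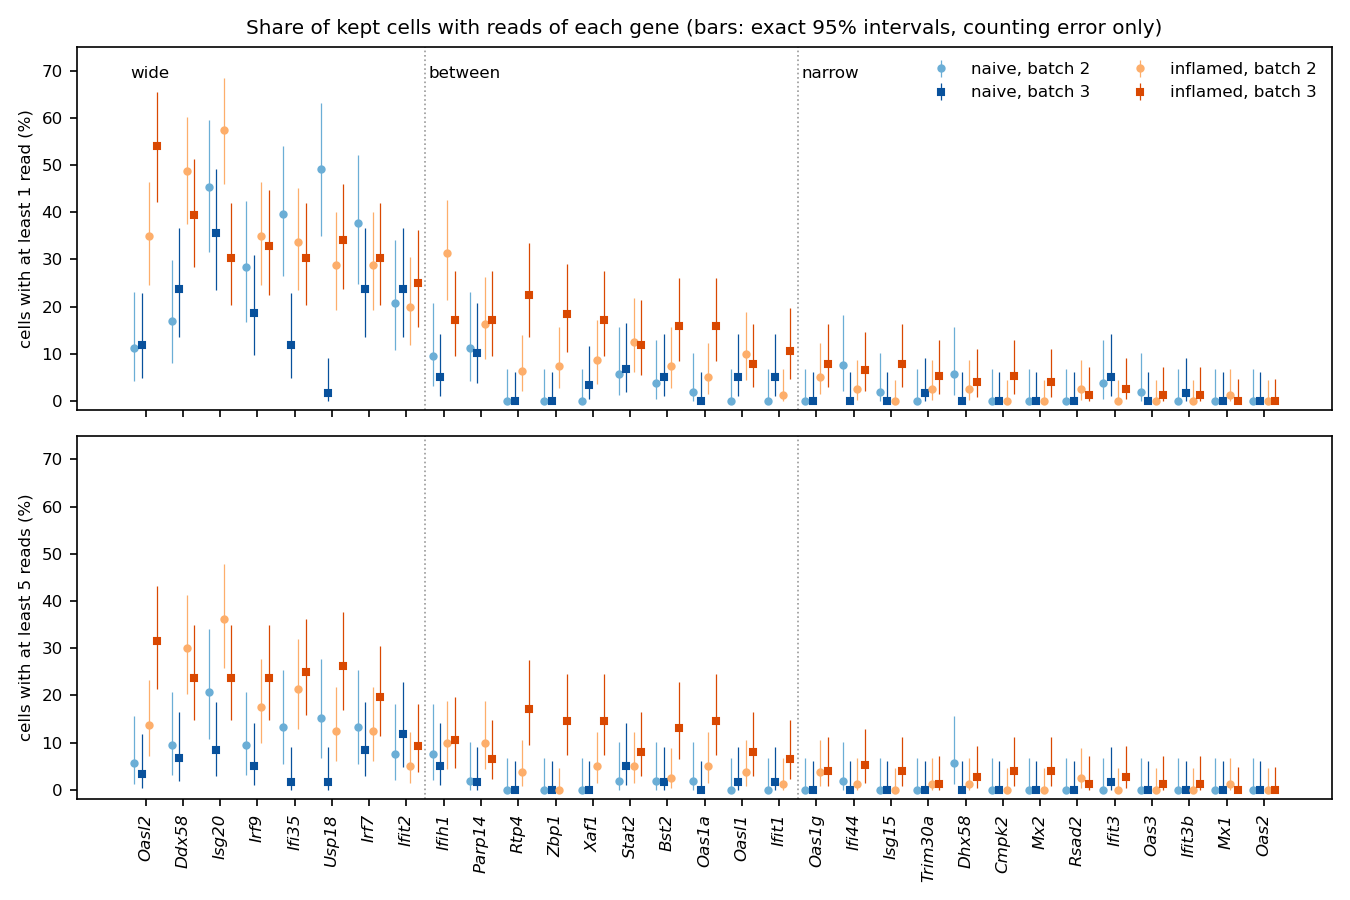
Share of kept cells of each group with at least 1 read (upper panel) or at least 5 reads (lower panel) of each gene, in percent, with exact 95% Clopper-Pearson intervals that cover counting error only. Oasl2 and Ddx58 are the wide genes whose inflamed shares exceed both naive shares in both batches by the widest margins, with 53.9% against 11.9% for Oasl2 in batch 3.

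Among the wide genes, the inflamed share was above both naive shares in both batches for Oasl2, Ddx58 and Irf9. The wide class was set by the inflamed shares alone, which favours inflamed over naive in this comparison, so it is a description only. For Ifit2, Irf7, Usp18, Isg20 and Ifi35 the shares of naive and inflamed cells with a read overlapped. Ifi35 and Usp18 were therefore higher in summed level in both batches without a higher share of cells with a read in batch 2. With 5 reads or more, the batch 2 share of Ifi35 was higher in inflamed cells (21.2% against 13.2%). That of Usp18 was not (12.5% against 15.1%). For Isg20 both inflamed shares with 5 reads or more lay above both naive ones. Ifit2, Irf7 and Isg20 were read in at least 20% of naive cells of both batches as well. Among the genes between, Rtp4 and Zbp1 had no read in any naive cell. Xaf1, Oas1a and Bst2 reached 17.1%, 15.8% and 15.8% of the inflamed cells of batch 3.

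How the reads of a gene were spread over cells follows in part from the class rule, since a gene read in few cells has few to spread over, and the classes are not compared here. Of the wide genes only Ifit2 had more than 50% of its reads in 1 inflamed cell of batch 3, and the median share held by the 1 most read cell was 25.7% and 24.8% for the 8 wide genes in inflamed cells of batches 2 and 3. Concentration in 1 cell was common over the whole list: 11 of the 18 genes read in the naive sum of batch 2 and 13 of the 18 read in that of batch 3 had more than 50% of their reads in 1 cell, against 14 of 24 and 11 of 29 in the inflamed sums. The inflamed sums hold more cells and counts than the naive ones, and the part of this in the number of genes read was not tested.

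**Figure D4:**
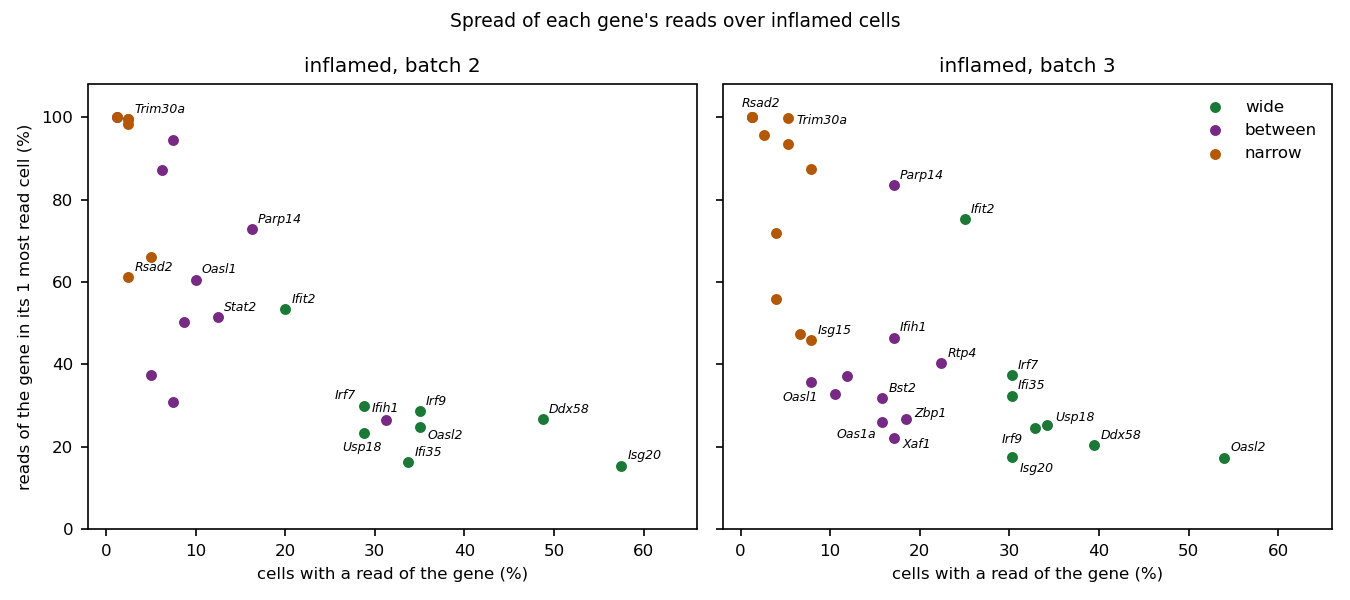
Share of inflamed cells with a read of each gene (x axis, percent) against the share of its reads found in the 1 cell with most (y axis, percent), for batch 2 and batch 3. Oasl2, Ddx58 and Isg20 lie at the lower right, with 15.4% to 26.6% of reads in 1 cell, while Trim30a lies at 99.5% and 99.8%.

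Counted per cell, more of the 31 genes were read in inflamed cells. Over all genes, the median number detected per cell was 4739 and 3432 in naive and 4683 and 4108 in inflamed cells of batches 2 and 3. The part of this in the count was not tested. Of the 31, the median was 3 and 2 genes in naive cells of batches 2 and 3 and 4 in inflamed cells of both. The highest values were 7 and 5 against 10 and 17. With 5 reads or more the medians were 1 and 0 in naive and 2 and 2.5 in inflamed cells, and after thinning to 500000 counts, with a read, 2, 1, 3 and 4. At least 10 genes were read in 0 of 53 and 0 of 59 naive cells (exact Clopper-Pearson 95% upper bounds 6.72% and 6.06%) and in 2 of 80 and 6 of 76 inflamed cells (2.50% and 7.89%, exact Clopper-Pearson 95% intervals 0.304% to 8.74% and 2.95% to 16.4%). At least 1 narrow gene was read in 11 of 53 and 4 of 59 naive and in 11 of 80 and 25 of 76 inflamed cells. In these groups 2 or more narrow genes were read together in 0, 1, 2 and 6 cells. By the class rule narrow genes are read in few cells, so such low numbers are no result about them. The highest number in 1 cell was 1 and 2 in naive and 2 and 6 in inflamed cells.

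**Figure D5:**
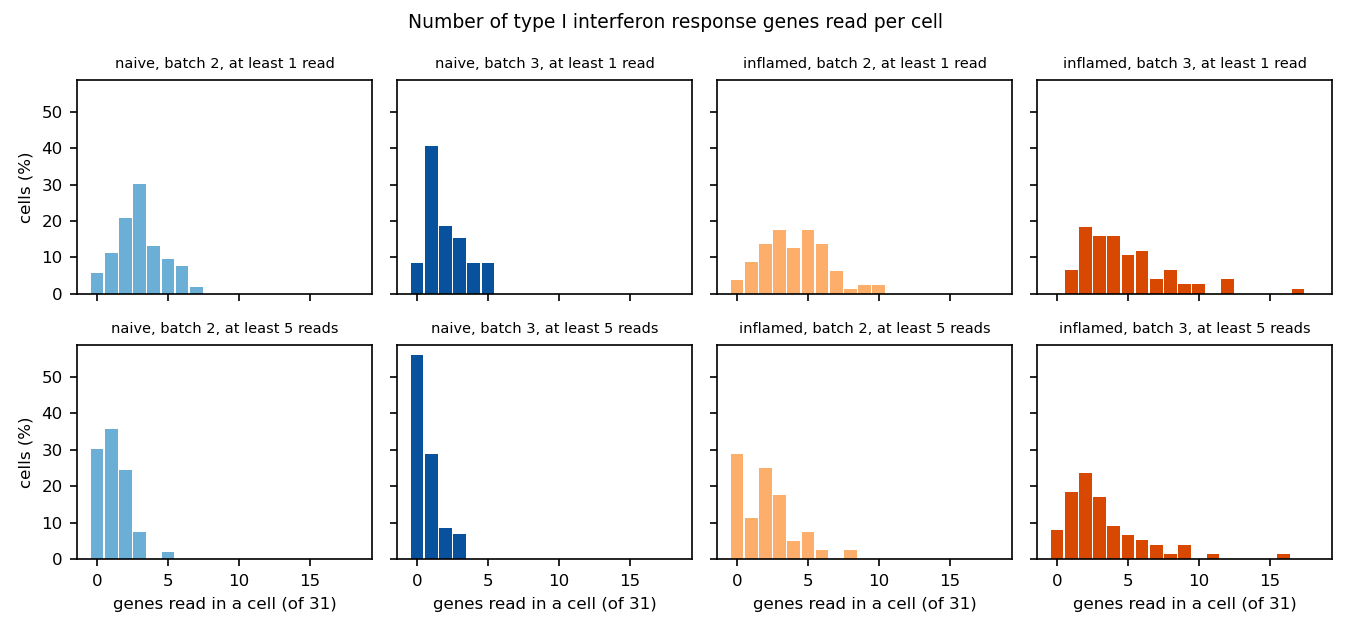
Percent of cells (y axis) by the number of the 31 genes read in a cell (x axis), for the 4 groups, with at least 1 read (upper row) or at least 5 reads (lower row). Inflamed cells of batch 3 reach furthest to the right, with 1 cell at 17 genes, while naive cells end at 7 and 5.

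One inflamed cell of batch 3 stood apart. It had reads of 17 of the 31 genes, 16 of them with 5 reads or more, and its 16153 reads made up 21.2% of all reads of the list in that sum, at a total of 1200443 counts. The next cell had 12 genes and 2034 reads. The cell held 100% of the reads of Rsad2 and Ifit3b, 99.8% of those of Trim30a, 95.8% of those of Ifit3 and 75.2% of those of Ifit2, and it had most reads of 8 genes. It had no read of Isg15, Ifit1, Oas1g, Zbp1, Irf9 or Isg20. Of the 10 basal markers 7 were read in it, from Krt17 with 11778 and Krt14 with 2722 reads to Krt5 with 11 and Itgb4 with 2, while Trp63, Col17a1 and Lamb3 were at 0. Of the luminal markers Cd24a and Krt18 were read, at 88.3 and 1.67 CPM, and of the stromal ones Dcn alone, with 5022. The leukocyte, endothelial and plasmacytoid and myeloid markers were at 0 in this cell, but 10 of the 12 leukocyte markers were at 0 in every kept cell.

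Without that cell, 21 genes were tested, of which 15 were higher in both batches and 5 at an unadjusted p under 0.05, and the median log2 fold change was 2.10. The cell was left out only after its values had been seen. Ddx58 then had an unadjusted p of 0.0643 in edgeR (adjusted p = 0.587), and Oasl2 one of 0.0169 (adjusted p = 0.570). The log2 fold change of Ifit2 became -1.67 (SE 0.66, edgeR adjusted p = 0.594).

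Upstream of these genes, the other parts of the pathway were read unevenly. None of 11 interferon genes, from Ifnb1, Ifna1 and Ifna2 to Ifng, had a read in any kept cell, so all 11 are listed at 0. For the counts that follow, 30.9% of all genes tested were higher in both batches, 28.3% were lower in both, and 5.04% had an unadjusted p under 0.05 in edgeR with a higher level in inflamed cells. Of 9 receptors and kinases, 5 were higher in both batches and 2 at an unadjusted p under 0.05. Jak2, a kinase of the interferon gamma receptor, stood at 3.03 and 6.42 CPM (naive) against 81.9 and 145.6 CPM (inflamed) (log2 fold change 4.63, SE 0.63, edgeR unadjusted p = 0.00258, adjusted p = 0.568). Ifngr1, a chain of that receptor, stood at 70.3 and 102.01 against 190 and 277 CPM (log2 fold change 1.44, SE 0.36, edgeR adjusted p = 0.568). Jak1, which serves both receptor types, overlapped, at 284 and 711 against 289 and 286 CPM.

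Of 10 transcription factors, 4 were higher in both batches (40%, near the share of all genes) and 3 at an unadjusted p under 0.05. Irf1, a factor that responds to both kinds of interferon, stood at 62.7 and 172.6 against 287 and 873 CPM, with reads in 64.2% and 49.2% of cells (naive) against 87.5% and 93.4% (inflamed) (edgeR unadjusted p = 0.00251, adjusted p = 0.568). Nlrc5, which drives class I antigen presentation genes, had 0 and 0.0421 against 28.4 and 42.5 CPM, and Irf5 had 0.0177 and 0.126 against 30.9 and 11.8 CPM. Stat3, a factor of cytokine signalling, overlapped, at 222 and 618 against 330 and 262 CPM.

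Among 5 tested feedback inhibitors, Usp18 included, 3 were higher in both batches and 0 at an unadjusted p under 0.05. Ptpn2, a phosphatase of Jak and Stat proteins, stood at 195 and 354 against 295 and 433 CPM, Pias1 at 161.3 and 111.8 against 66.4 and 127.2 CPM, and Socs3 at 0 and 14.3 against 4.88 and 65.6 CPM. Of 7 tested genes of nucleic acid sensing, 3 were higher and 3 lower in both batches, each 42.9% of so few genes that the count is no result about them. The kinase Tbk1, which activates Irf3, was the one at an unadjusted p under 0.05 (88.99 and 48.3 against 173.7 and 207 CPM, edgeR unadjusted p = 0.0415, adjusted p = 0.568). Tmem173, which encodes STING, stood at 69.9 and 53.5 against 85.8 and 146.5 CPM, and Ikbke at 6.47 and 41.7 against 14.2 and 16.8 CPM.

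Of 35 further interferon-stimulated genes outside the list, 31 had a read and 29 had enough counts to be tested. Of these, 17 were higher and 2 lower in both batches and at an unadjusted p under 0.05 there were 6 higher, with a median log2 fold change of 2.59, or 2.27 over the 14 read in at least 20% of the kept cells. Ifitm3, which blocks virus entry at membranes, was read in nearly every cell, at 98.1% and 98.3% of cells (naive) against 98.8% and 100% (inflamed), and stood at 858 and 593 against 2030.2 and 2472 CPM (log2 fold change 1.65, SE 0.33, edgeR unadjusted p = 0.00945, adjusted p = 0.568). Psmb8, a subunit of the immunoproteasome, stood at 23.8 and 28.1 against 84.3 and 292 CPM. Ifi47 stood at 1.22 and 17.4 against 25.4 and 251 CPM, Ifitm1 at 0.159 and 0.232 against 60.5 and 28.1 CPM, Ifi27 at 28.7 and 17.5 against 78.2 and 112.5 CPM, and Lgals9 at 1.97 and 47.1 against 42.4 and 146.2 CPM. Ifitm2 overlapped, at 121.7 and 90.1 against 90.7 and 145.4 CPM.

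The 16 genes known mainly for their response to interferon gamma were counted in the same way. Of these, 14 were higher in both batches, and at an unadjusted p under 0.05 in edgeR 12 were higher and 1, Cxcl10, was lower. Several of the 16 had at most 3 counts in a naive sum, where a fitted fold depends on the prior count. Over the 10 that were read in at least 20% of the kept cells the median log2 fold change was 7.34, beside 1.23 for the 8 type I genes that passed the same filter. That filter pools naive and inflamed cells, so genes can pass it through inflamed cells. Gbp4 and Cxcl9 passed it with 0 and 3 and with 4 and 2 counts in the naive sums. Folds behind the 7.34 therefore also depend on the prior count. Irgm1, a GTPase of cell-autonomous defence, stood at 1.65 and 3.08 against 303 and 637 CPM, with reads in 60% and 65.8% of inflamed cells. Ido1, which breaks down tryptophan, stood at 0 and 0.0421 against 186.2 and 294 CPM and was read in 45% and 68.4% of inflamed cells. Cxcl10, a chemokine also induced by type I interferon, went the other way, at 2089 and 3054 against 488 and 1967 CPM, and was read in 92.5% of cells or more in each group. Icam1, an adhesion molecule, stood at 156.2 and 354 against 494 and 538 CPM. The difference between the lists was not tested, and several Gbp and Irg genes have near copies.

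Cell by cell, the rank correlation of the number of type I genes read with the number of gamma genes read was higher in inflamed than in naive cells. This is a description without a test. Over cells thinned to 500000 counts, Spearman's rho was 0.14 (n = 46) and 0.15 (n = 55) in naive and 0.36 (n = 70) and 0.65 (n = 72) in inflamed cells of batches 2 and 3. The points share each cell's library: with the number of genes detected, rho was 0.31, 0.38, 0.26 and 0.47. The number of gamma genes read per cell ranged from 1 to 4 and 0 to 5 in naive and from 0 to 11 and 2 to 14 in inflamed cells. Naive cells thus had little range to rank, so rho is not comparable between the conditions. In sparse counts such values carry little by themselves. The cell with 17 of the 31 genes had reads of 12 of the 16 gamma genes.

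The promoter letters were also counted by class. The response element core was present in a window of 7 of 9 narrow, 5 of 7 between and 1 of 7 wide genes with an entry, the 1 being Ddx58, shown above. The letters TTCNNNGAA, the core of the gamma-activated site, were present in 8.30% of all windows and 9.55% of genes. They occurred in 3 of 7 wide genes (Ifit2, Isg20 and Ifi35), 2 of 7 between (Oas1a and Bst2) and 0 of 9 narrow genes. These are counts of letters in fixed windows over few genes, and no test of the classes was made. Neighbouring copies such as Ifit3 and Ifit3b or Oas1a and Oas1g share their promoter layout and are not independent.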

How the data were processed

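The authors deposited a table of raw read counts for each batch, with genes in rows and cells in columns (per the file headers; all values are whole numbers). TopHat2, HTSeq, R 3.4.1, Seurat 1.4 and the build GRCm38.p6 are named without roles, per the submitters' processing notes. How reads with several places in the genome were counted, and whether strand was used, no source used here states. The 31 genes and the pathway lists were chosen with earlier results of these data known. Symbols were matched for 48058 of 48440 gene identifiers. Cells with under 1000 detected genes or 50000 counts were left out, which removed 14 of 282. No doublet caller was run, and 0 cells had counts identical to those of another. Median totals per cell were 971069 and 840863 counts in naive and 1001872 and 998864 in inflamed cells of batches 2 and 3.

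Counts were summed per condition and batch and tested in R 4.3.3 with edgeR 4.0.16 (TMM scaling, filterByExpr, quasi-likelihood test, condition and batch as terms, Benjamini-Hochberg adjustment over 14713 genes). The batch, named by the labels, pairs the sums: it is the block, and leaves 1 residual degree of freedom. The deviations of the naive and inflamed sums by batch had a correlation of -0.0114 over these genes. CPM use the TMM-scaled totals. Folds against 0 counts use a floor of 3 counts per sum, and those against 1 to 3 counts have an exact conditional 95% interval. The scripts were tested on simulated counts. Full values are given for the 14 genes with the highest mean CPM, those with an unadjusted p under 0.05 and those lower in both batches. Of each pathway list, the 3 genes with the highest mean CPM and those with an unadjusted p under 0.05 were eligible to be named. A gene of these lists is not reported here. Alternatives were DESeq2 1.42.0, other scalings and gene filters, thinned cells, all deposited cells, no block, and leaving out single sums or cells.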

Additional observations from a re-analysis of the deposited data

Results flagged for a closer look

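Bst2 was flagged because its difference between inflamed and naive cells went opposite ways in the 2 batches, by at least 2-fold each. Its log2 fold change was -1.33 in batch 2 (7.16 CPM in naive and 2.83 CPM in inflamed cells) and 3.26 in batch 3 (0.990 CPM in naive and 9.73 CPM in inflamed cells). In the naive sums and in the inflamed sum of batch 2, 1 cell held 99.8%, 95.7% and 94.6% of the Bst2 reads, against 31.8% in the inflamed sum of batch 3. The difference between the batches was not tested, since 1 sum per condition and batch leaves no spread to test it against. The share of cells with a read was higher in inflamed cells of both batches, at 7.50% against 3.77% and 15.8% against 5.08%.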

How the results depend on the processing

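In edgeR, 0 genes passed adjustment in the reported fit (at an unadjusted p under 0.05, 742 were higher and 475 lower), and 0 did under every edgeR alternative run, while DESeq2 called 1461 genes, 927 higher and 534 lower. Of the type I genes, 7 of 24 were higher at an unadjusted p under 0.05. That count was 3 of 8 with genes read in at least 20% of cells, 4 of 23 in thinned cells and 14 with DESeq2, of which 9 passed adjustment. Without the replicate block for the batch it was 10, with a median log2 fold change of 2.02, and no type I gene then changed its side of an adjusted p of 0.05. Fits that left out 1 sum also left out the batch term, and most tested a different number of these genes. Their counts are therefore not given. In such fits the condition left with 1 sum is assumed to vary like the other. The number higher in both batches, 16 of 24, was 5 of 8 under the 20% filter, and with a single batch 17 to 20 were higher. The median log2 fold change of 2.38 was 3.76 over 30 genes without a filter on low counts, 1.23 under the 20% filter, and 1.60 to 2.91 with a single batch. These filters also change which genes are counted. The 8 wide genes became 3 when 5 reads were asked for, and the mean number of genes read per inflamed cell fell from 4.44 to 3.91 after thinning. Of the values computed for single genes under these alternatives, 7 passed adjustment with DESeq2 only and 2 reversed, and the others kept their direction and their side of the adjusted threshold. The reversals were Parp14 to -0.20 in thinned cells, and Stat2 to 3.26 without the cell with most of its reads in each sum. The causes were not tested. Taking 3 cells as the limit for a count of 0, a gene at 0 in 53 or 59 naive cells may still be read in up to 5.66% or 5.08% of such cells.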
